A study of Homo sapiens with 4 samples.

Results

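The miR-34 and miR-449 family is a set of 6 hairpins at 3 loci whose 5p strands carry the same seed motif. Its members were taken by name, as every row for miR-34a, miR-34b, miR-34c, miR-449a, miR-449b or miR-449c with either strand and at any level, which gave 11 of the 1345 miRNA rows, 6 of miR-34 and 5 of miR-449. The rows come from small-RNA sequencing of HCT116, a human colorectal carcinoma line with functional p53, in lines built so that doxycycline switches on a short hairpin RNA (shRNA) that targets SAE2, which together with SAE1 forms the enzyme that activates SUMO for attachment to proteins. There were 2 plus libraries, read as induced, and 2 minus libraries, read as uninduced. Plus replicate 2 and minus replicate 2 are labelled as the sh2 line and minus replicate 1 as the sh1 line, while plus replicate 1 is labelled without a shRNA number and was placed in the sh1 line by elimination. All cells, minus included, carry an shRNA construct, and the labels state the 3 days of doxycycline for each library alike, so the reading of minus as uninduced rests on that word. Effects of doxycycline itself cannot be told apart from those of the knockdown. SAE2 mRNA is not measured by these libraries.

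The 3 miR-34 miRNAs are direct transcriptional targets of p53 and repress messages for cell cycle and survival proteins such as CDK6, MET and BCL2. miR-34a has its own gene, while miR-34b and miR-34c are cut from one primary transcript whose promoter is often methylated in colorectal cancer. The miR-449 miRNAs lie in the CDC20B gene, are induced by E2F1, and are best known from multiciliated epithelia and testis, where they share targets and functions with miR-34. A miRNA finds its targets mainly through its seed, the bases at positions 2 to 8.

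The mature sequences below, credited to RefSeq on build GRCh38.p14, show why the 5p strands form a family. They are written 5′ to 3′ with the seed in capitals. The first 3 share the seed GGCAGUG, which pairs with CACUGCC in a message, and the next pair carries the motif moved by 1 base, which makes its seed AGGCAGU.
miR-34a-5p: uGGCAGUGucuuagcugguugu
miR-449a: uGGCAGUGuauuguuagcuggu
miR-449b-5p: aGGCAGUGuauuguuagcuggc
miR-34b-5p: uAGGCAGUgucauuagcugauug
miR-449c-5p: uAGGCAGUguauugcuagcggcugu

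The shared stretch GGCAGUGU starts at base 2 of miR-34a-5p, miR-449a and miR-449b-5p and at base 3 of miR-34b-5p and miR-449c-5p. With the strands lined up on it, miR-449a and miR-449b-5p were identical at 20 of 22 bases, and miR-34a-5p and miR-449a at 15 of 22. miR-34c-5p belongs to the miR-34a seed family and was counted with the GGCAGUG strands. Among the 2370 mature names in the reference table, miR-2682-5p also had the seed AGGCAGU, and no name outside the family had GGCAGUG. Of the 3 names with AGGCAGU only the 2 members had a row among the deposited values. Of the 11 members 9 had a sequence in that table.

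The 3p strands of miR-34 have seeds of their own, shown here because the strand ratios are described further on.
miR-34a-3p: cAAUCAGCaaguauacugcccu
miR-34b-3p: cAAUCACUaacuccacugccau
miR-34c-3p: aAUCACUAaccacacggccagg
No 2 of them share bases 2 to 8, and each seed was found in 1 mature name of the reference table. The seed of miR-34c-3p, AUCACUA, also occurs in miR-34b-3p, moved by 1 base.

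The hairpin of miR-34a lies at chr1:9151668-9151777 on the minus strand (GRCh38.p14), band 1p36, in an exon of its host long noncoding RNA MIR34AHG in GENCODE 29. The hairpins of miR-34b, at chr11:111512938-111513021, and miR-34c, at chr11:111513439-111513515, lie 417 bases apart on the plus strand of band 11q23 and overlap no host gene in that annotation. The 3 miR-449 hairpins lie on the minus strand of band 5q11 in an intron of CDC20B, miR-449a at chr5:55170532-55170622, miR-449b at chr5:55170646-55170742 and miR-449c at chr5:55172262-55172353. Thus miR-449a and miR-449b are 23 bases apart and miR-449c is 1519 bases further on.

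The values are normalised read counts as deposited, in libraries that summed to between 9700472 and 10519207. A count of 3 reads, taken as the floor, stood between 2.83 and 3.08 normalised counts. Colon epithelial miRNAs, 5 markers of which miR-200c-3p was the most abundant, summed to between 234611 and 241808 in plus and between 206232 and 207623 in minus libraries. The 3 blood markers summed to at most 157 in plus and 168 in minus libraries, and the 2 muscle markers in the table to at most 15.3 in plus and 8.48 in minus libraries. The liver marker miR-122-5p had 46.3 and 58.2 in plus against 48.4 and 48.2 in minus libraries, and the neuronal miR-124-3p 31.8 and 22.5 against 13.1 in each minus library. miR-126-3p, which marks endothelium, stood at 4728 and 5175 in plus against 5490 and 5305 in minus libraries. Every library is of an HCT116 line, and a marker's level here does not show that its cell type was present. The part of other cells in the family's values was not tested. In these bulk libraries, fewer cells making a miRNA and less of it per cell cannot be told apart.

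**Figure D1:**
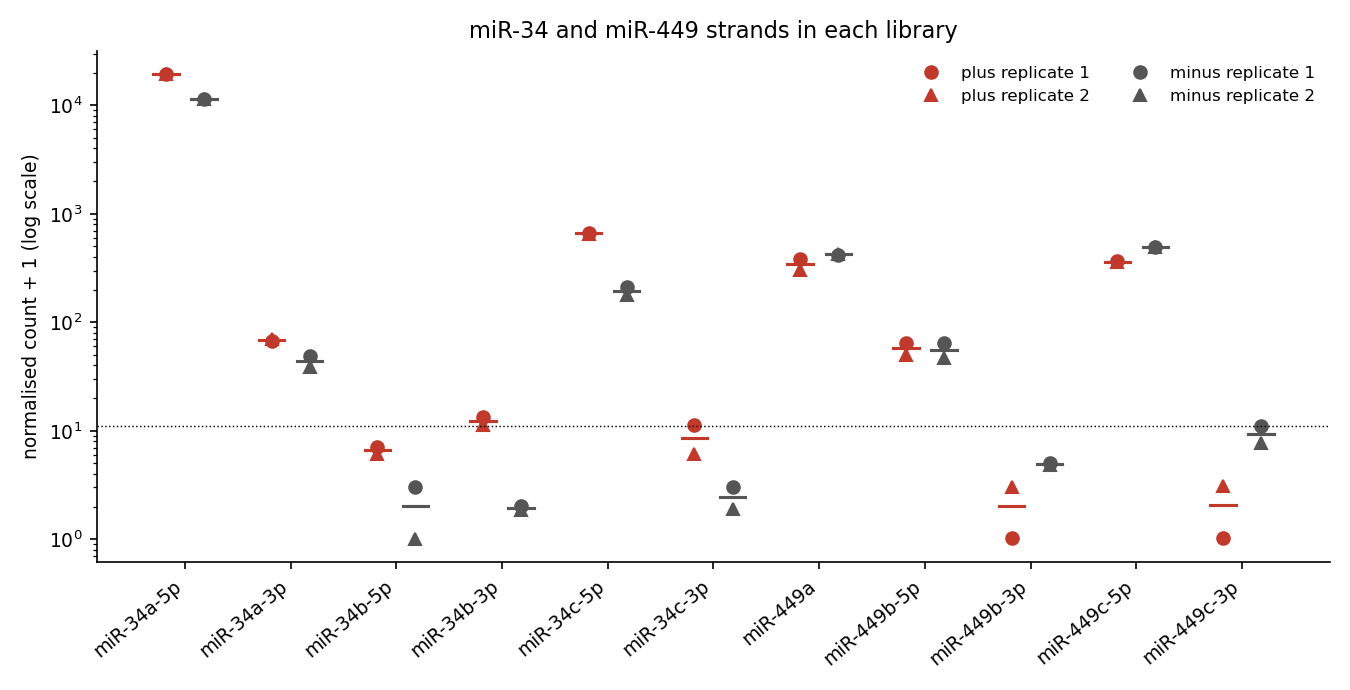
Normalised read count plus 1 on a log axis for each of the 11 strands in each library, with plus libraries in red and minus libraries in grey, circles for replicate 1, triangles for replicate 2 and bars at the mean of 2 libraries. The dotted line marks a count of 10, the mean needed for the test. All 6 miR-34 strands are higher in both plus libraries, and miR-34a-5p lies far above every other strand.

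The miR-34 strands were all higher in the plus libraries, while 4 of the 5 miR-449 strands were lower there and miR-449b-5p overlapped between the groups. Of the 6 strands tested, both plus libraries lay above both minus libraries for 3 and below them for 2. Over all 709 tested miRNAs this was so for 29.1% and 33.9%. No such share was counted for rows below a mean of 10, which include the untested strands of the family. Of the 6 strands with enough reads to be tested, 3 rose (miR-34c-5p, miR-34a-5p and miR-34a-3p) and 1 fell (miR-449c-5p). The same test called 13.4% of all 709 tested miRNAs higher and 15.1% lower. The median log2 change was 0.36 over the 6 tested strands and −0.03 over all 709.

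At 1p36, miR-34a-5p, the main strand of the most abundant member, had 19434 and 19241 normalised counts in plus replicates 1 and 2, against 11387 and 11374 in minus replicates 1 and 2. The groups were well apart, and within each group the libraries differed by far less. The ratio of plus to minus was 1.71 in the sh1 line and 1.69 in the sh2 line. It rose by 0.76 on the log2 scale (standard error 0.08, limma adjusted p = 6.02e-10), a change that 39 of the 709 tested miRNAs exceeded. By level miR-34a-5p was 58th and 61st of the 1345 rows in the plus libraries and 70th and 69th in the minus libraries.

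Its partner strand miR-34a-3p had 66.8 and 68.4 normalised counts in the plus libraries, against 47.4 and 37.6 in the minus libraries. Both plus libraries were higher than both minus libraries, by 0.67 on the log2 scale (standard error 0.25, limma adjusted p = 0.0440). That call ended without a minimum level, without a mean-variance trend, with equal totals, under quantile normalization and with any library left out (limma adjusted p from 0.0814 to 0.326 over the last).

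At 11q23, miR-34c-5p had 666 and 651 normalised counts in the plus libraries, against 211 and 179 in the minus libraries. Each plus library was more than 3 times as high as each minus library. The ratio was 3.16 in the sh1 line and 3.63 in the sh2 line. It rose by 1.76 on the log2 scale (standard error 0.14, limma adjusted p = 8.35e-14), and 8 of the 709 tested miRNAs had a larger one. In rank by level miR-34c-5p was 216th and 220th in the plus libraries, against 308th and 320th in the minus libraries.

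The other strands of this locus were near the floor and were not tested. miR-34c-3p had 10.2 and 5.10 normalised counts in the plus libraries, against 2.02 and 0.88 in the minus libraries. In reads, these values come to about 15 against 3, or 5.04 times as many after scaling (95% interval 1.43 to 27.2). With a library left out, the ratio ranged from 3.24 (plus replicate 1 omitted) to 7.75 (minus replicate 1 omitted). All intervals on reads are exact binomial (Clopper-Pearson), scaled by the estimated depths, and cover counting error only. Both plus libraries were above both minus libraries, with the lower plus library at 5 reads.

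miR-34b-3p had 12.3 and 10.2 normalised counts in the plus libraries, against 1.02 and 0.86 in the minus libraries. miR-34b-5p had 6.13 and 5.09 in the plus libraries, against 2.02 and 0 in the minus libraries. Each strand of miR-34b was thus above the floor in both plus libraries and below it in both minus libraries. Over both strands, miR-34b had about 33 reads in the plus against 4 in the minus libraries, a ratio of 8.32 (95% interval 2.96 to 32.3). Over both strands of miR-34c these sums were about 1300 and 402, a ratio of 3.26 (2.91 to 3.66). The intervals overlap, which is not a test, and a difference in ratio between the neighbours was not tested. miR-34b made up 2.48% of the reads of the locus in the plus libraries (1.71% to 3.46%) and 0.985% in the minus libraries (0.269% to 2.50%).

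When all 1345 rows were fitted without a minimum level, miR-34b-3p had a log2 change of 2.65 (limma adjusted p = 0.0774), miR-34b-5p of 1.92 (adjusted p = 0.202) and miR-34c-3p of 1.80 (adjusted p = 0.177). None of these passed. In the same fit miR-34c-5p and miR-34a-5p were past the threshold (limma adjusted p = 0.0240 and 0.0234).

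Relative to miR-34a-5p, miR-34c-5p was higher in the plus libraries. It stood at 3.43% and 3.38% of the miR-34a-5p count in the plus libraries, against 1.85% and 1.58% in the minus libraries. The ratio was higher in both plus libraries, by 0.99 on the log2 scale, while the pooled standard deviation between libraries of a group was 0.12. The exact two-sided permutation test gave p = 0.333, the smallest that 2 against 2 libraries allow, and 0.5 after adjustment over 3 such pairs.

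**Figure D2:**
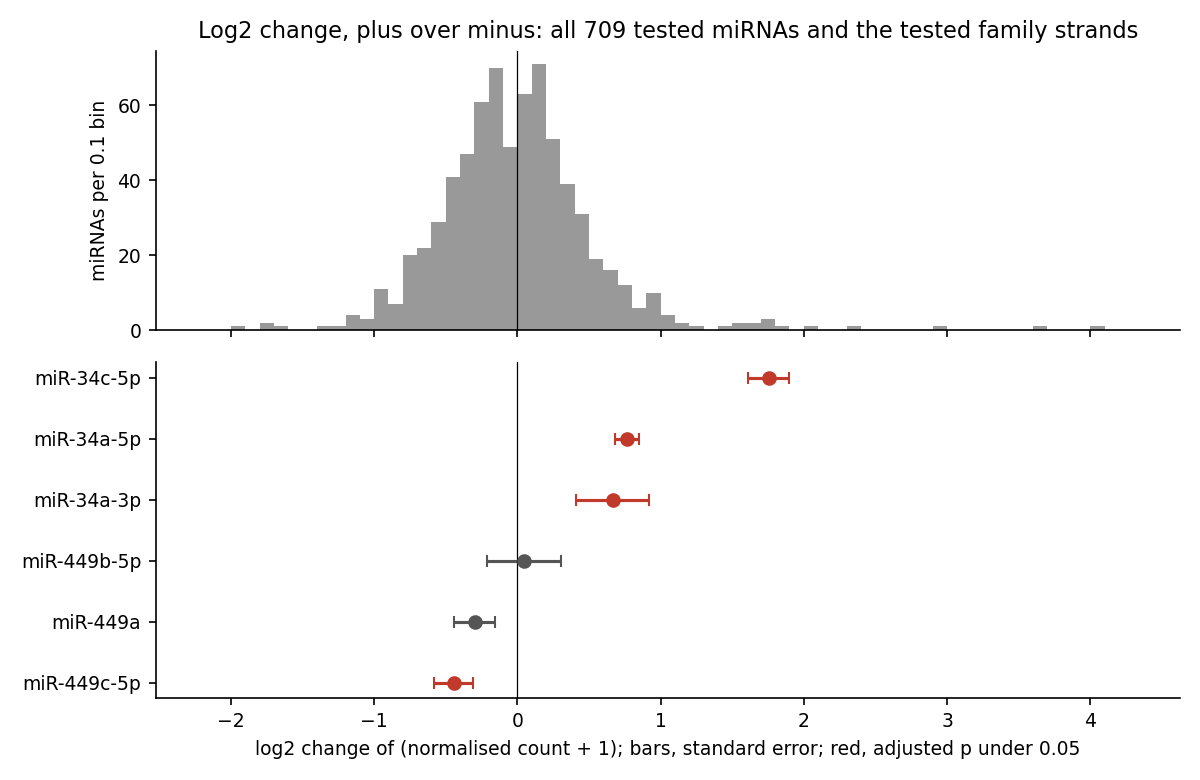
Log2 change of the normalised count plus 1, plus over minus, as a histogram of all 709 tested miRNAs (top, in bins of 0.1) and for the 6 tested strands of the family with standard errors (bottom), red where the adjusted p was under 0.05. miR-34c-5p, at 1.76, lies in the right tail, and miR-449c-5p, at −0.45, lies left of the centre.

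At 5q11, miR-449c-5p had 364 and 357 normalised counts in the plus libraries, against 491 and 491 in the minus libraries. It fell by 0.45 on the log2 scale (standard error 0.13, limma adjusted p = 0.0101). The ratio of plus to minus was 0.742 in the sh1 line and 0.726 in the sh2 line, so both lines showed the fall. Of all 709 tested miRNAs 585 had a higher log2 change. The call ended without a minimum level, without a mean-variance trend, under quantile normalization and with any library left out, the last with a limma adjusted p from 0.0777 to 0.0958.

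miR-449a had 383 and 305 normalised counts in the plus libraries, against 420.3 and 421 in the minus libraries. Both plus libraries were lower, and plus replicate 2 more so than plus replicate 1. The log2 change of −0.30 did not pass (standard error 0.14, limma adjusted p = 0.115). It was −0.46 without plus replicate 1, −0.13 without plus replicate 2 and −0.16 under quantile normalization.

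miR-449b-5p had 63.7 and 49.1 normalised counts in the plus libraries, against 63.5 and 46.2 in the minus libraries. The groups overlapped, and replicate 1 was the higher in both groups. It differed by 0.04 on the log2 scale (standard error 0.26, limma adjusted p = 0.911), and the sign turned with the scaling to equal totals and with minus replicate 2 or plus replicate 1 left out.

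The 3p strands of miR-449 were near the floor. miR-449c-3p had 0.03 and 2.07 normalised counts in the plus libraries, against 10.1 and 6.66 in the minus libraries, which are about 2 and 17 reads and give 0.119 as their ratio (95% interval 0.0133 to 0.4999). miR-449b-3p had 0.02 and 2.05 in the plus libraries, against 4.03 and 3.81 in the minus libraries, which are about 2 and 8 reads and give 0.252 (0.0261 to 1.26). Without plus replicate 1 the ratios were 0.229 and 0.486, and without plus replicate 2 no plus read was left. Both strands were lower in both plus libraries, and plus replicate 1 held no read of either. Without a minimum level their limma adjusted p-values were 0.175 and 0.299.

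Within the miR-449 cluster, miR-449c-5p and miR-449a kept nearly the same ratio in 3 of the 4 libraries, with miR-449c-5p at 94.9% and 117% of the miR-449a count in the plus libraries and 117% in each minus library (exact two-sided permutation p = 0.667 for the log2 ratio). Against miR-449b-5p, miR-449c-5p was lower in the plus libraries, by 0.49 on the log2 scale (exact two-sided permutation p = 0.333, adjusted over the 3 pairs 0.5).

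Summed over the strands that share the GGCAGUG seed, the pool of miR-34a-5p, miR-34c-5p, miR-449a and miR-449b-5p held 20547 and 20247 normalised counts in the plus libraries, against 12082 and 12021 in the minus libraries. The pool was 1.69 times as large in plus as in minus, with 1.70 in the sh1 line and 1.68 in the sh2 line. It made up 0.209% and 0.192% of all counts in the plus libraries, against 0.123% and 0.124% in the minus libraries. No test was made of the sums, since the strands were chosen with their changes known.

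miR-34a-5p alone was 94.6% and 95.04% of this pool in the plus libraries, against 94.3% and 94.6% in the minus libraries. The share of miR-34c-5p was 3.24% and 3.21% in plus, against 1.74% and 1.49% in minus. The share of miR-449a was 1.87% and 1.51% in plus, against 3.48% and 3.51% in minus. Behind miR-34a-5p, miR-34c-5p was thus the second strand of the pool in the plus libraries and miR-449a was in the minus libraries. Of the difference of 8345 counts between the group means, miR-34a-5p gave 7957, or 95.3%, and miR-34c-5p gave 463, or 5.55%, while miR-449a lowered it.

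The strands with the moved seed AGGCAGU were lower in sum in the plus libraries. Their pool held 370.1 and 362 normalised counts in the plus libraries, against 493 and 491 in the minus libraries, a ratio of 0.744. It was made up almost wholly of miR-449c-5p, with 98.3% and 98.6% in the plus and 99.6% and 100.0% in the minus libraries, since miR-34b-5p stayed at a few reads.

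By mean level, the order of the 5p strands in the plus libraries was miR-34a-5p, miR-34c-5p, miR-449c-5p, miR-449a, miR-449b-5p and miR-34b-5p. In the minus libraries it was miR-34a-5p, miR-449c-5p, miR-449a, miR-34c-5p, miR-449b-5p and miR-34b-5p. Neighbours in each order were apart in every library, except miR-449c-5p and miR-449a in the plus libraries, whose values overlapped. miR-34c-5p was below both miR-449 strands in each minus library and above both in each plus library. Each level here is a count of reads, and how readily each strand enters a library was not measured.

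**Figure D3:**
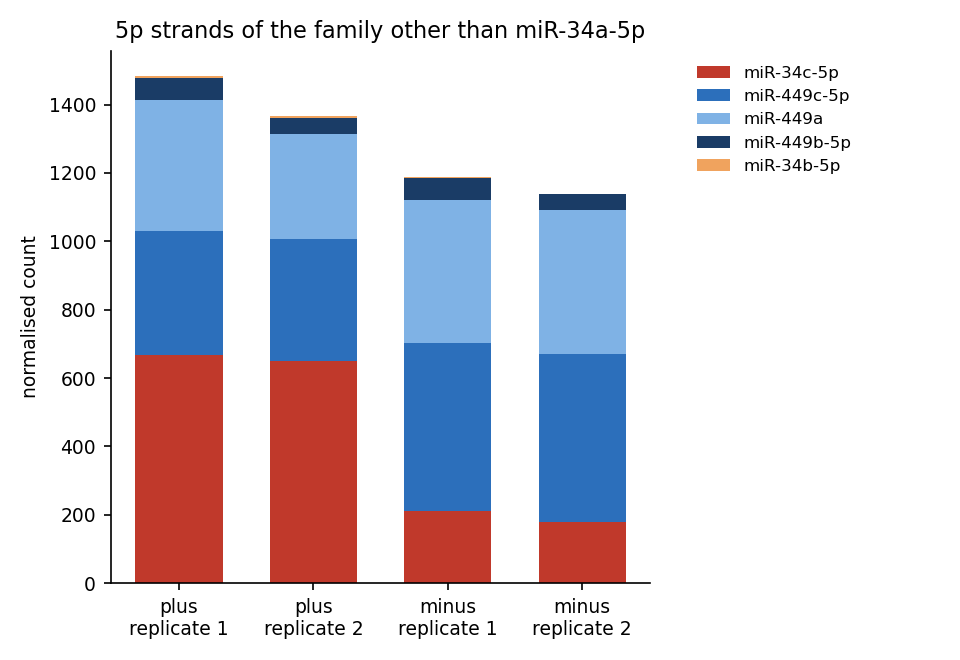
Normalised counts of the 5p strands other than miR-34a-5p, stacked per library, with the plus libraries on the left. miR-34c-5p stands at 666 and 651 counts in the plus libraries, against 211 and 179 in the minus libraries, while miR-449c-5p stands at 364 and 357, against 491 in each minus library.

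Each hairpin yields a 5p and a 3p strand, of which usually one is kept. The hairpins of miR-34a and miR-34b show the arrangement, written 5′ to 3′ with the mature strands in capitals.
MIR34A: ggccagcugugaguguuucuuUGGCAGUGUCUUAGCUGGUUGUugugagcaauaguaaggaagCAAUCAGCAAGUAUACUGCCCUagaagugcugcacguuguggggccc
MIR34B: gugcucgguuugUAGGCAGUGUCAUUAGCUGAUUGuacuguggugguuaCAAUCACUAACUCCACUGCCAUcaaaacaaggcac

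The 5p strand dominated in miR-34a, miR-34c, miR-449b and miR-449c, and in miR-34b the 3p strand had the more reads in the plus libraries. For miR-34a, 99.65% of the estimated reads were 5p in the plus libraries (95% interval 99.59% to 99.71%), against 99.63% in the minus libraries (99.54% to 99.70%). For miR-34c the 5p share was 98.8% in plus (98.1% to 99.4%) and 99.3% in minus (97.8% to 99.8%). For miR-34b it was 33.3% in plus, 11 of 33 reads (17.96% to 51.8%, which includes an even split), while the 4 reads in minus were evenly split. Over 275 hairpins with both strands in the table and a summed mean of at least 10, 53.1% were 5p dominant.

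For miR-34a and miR-34c the strand ratios overlapped between the groups. An exact test of 2 against 2 libraries could not have detected a shift. The log2 ratio of 5p to 3p, each count plus 1, averaged 8.14 ± 0.03 in plus and 8.04 ± 0.23 in minus libraries for miR-34a (SD, n = 2 each, exact two-sided permutation p = 1). For miR-34c it averaged 6.32 ± 0.60 in plus and 6.36 ± 0.32 in minus libraries (SD, n = 2 each, exact two-sided permutation p = 1). These shifts of 0.10 and −0.04 were within the spread between libraries, and that of miR-34c ranged from −0.46 to 0.38 with a library left out and was 0.79 at a pseudocount of 5. The smallest p this exact permutation test can give is 0.333, and p = 1 does not show that the ratios were alike. Of the 275 hairpins, 22.2% shifted by less than miR-34a and 8.0% by less than miR-34c, taking shifts by size. These placings were made at a pseudocount of 1 only.

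In the miR-449 hairpins the 3p strand was lower relative to the 5p strand in the plus libraries. The log2 ratio averaged 7.67 ± 1.14 in plus and 5.74 ± 0.38 in minus libraries for miR-449c, and 5.01 ± 1.38 in plus and 3.49 ± 0.27 in minus libraries for miR-449b (SD, n = 2 each, exact two-sided permutation p = 0.333 for both). The groups did not overlap, but the share of the 275 hairpins for which this holds was not counted. By size of shift at a pseudocount of 1, 99.3% and 96.7% of the 275 hairpins shifted by less than miR-449c and miR-449b. The placings were not made again at a pseudocount of 5. The 5p share of reads for miR-449c was 99.7% in plus (98.98% to 99.97%) and 98.3% in minus libraries (97.36% to 99.03%). That of miR-449b was 98.2% in plus (93.7% to 99.8%) and 93.3% in minus libraries (87.3% to 97.1%). These intervals overlap between the groups for both hairpins, which is not a test. Both shifts rest on 2 reads of the 3p strand in the plus libraries and came to 1.12 and 0.55 with plus replicate 1, which held no such read, left out, to 2.73 and 2.50 with plus replicate 2 left out, and to 0.71 and 0.63 at a pseudocount of 5.

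**Figure D4:**
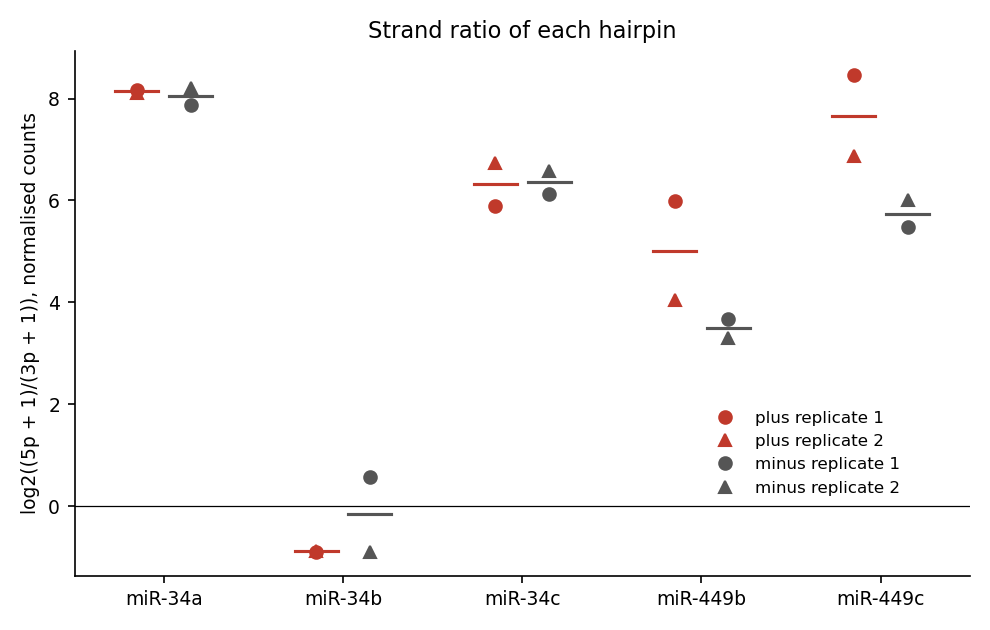
Log2 ratio of the 5p to the 3p strand, each normalised count plus 1, for the hairpins with both strands in the table, with plus libraries in red and minus libraries in grey, circles for replicate 1, triangles for replicate 2 and bars at the mean. miR-34a lies near 8 and miR-34c near 6 in both groups, miR-34b lies near or below 0, and miR-449b and miR-449c are higher in the plus libraries.

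The other miRNAs known to respond to p53 were described as a list of 34 strands, of which 26 were tested. Of these 8 rose, 5 fell and 13 did not pass, beside 13.4% and 15.1% of all tested miRNAs, and their median log2 change was 0.15. The rises included the intestinal miRNAs miR-192-5p (log2 change 0.78), miR-194-5p (0.72) and miR-215 (0.71), with limma adjusted p-values of 9.78e-09, 4.74e-08 and 0.00809. miR-22-5p, at 0.99, and miR-22-3p, at 0.66, rose as well, as did miR-1246 at 0.75, miR-143-3p at 0.29 and miR-107 at 0.31. The groups overlapped for miR-143-3p, which had 2857 and 4143 normalised counts in the plus libraries, against 2892 and 2724 in the minus libraries. Its log2 change was 0.03 without plus replicate 2 (limma adjusted p = 0.843) and 0.56 without plus replicate 1. The falls were miR-16-1-3p at −1.11, miR-29c-5p at −0.55, miR-29a-5p at −0.37, miR-145-3p at −0.36 and miR-145-5p at −0.29. With plus replicate 1 omitted, the last 2 changes were −0.22 and −0.18. Each of these 13 calls ended in at least 4 of the other fits. The more abundant partner strands of miR-16-1-3p, miR-29c-5p and miR-29a-5p did not pass. Their log2 changes were 0.07 for miR-16-5p, 0.11 for miR-29c-3p and 0.03 for miR-29a-3p. miR-16-5p is also the 5p strand of miR-16-2, so it is not particular to miR-16-1. Among the rises, the less abundant partner strand of miR-194-5p, miR-194-3p, did not pass (log2 change 0.51, limma adjusted p = 0.461).

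The tested miRNAs outside the family whose values over the 4 libraries were most like a member's were found by the Euclidean distance between log2 values centred on their mean. Nearest to miR-34c-5p were miR-181a-3p at a distance of 0.14, then miR-181b-5p and miR-4516, both at 0.31. miR-181a-3p, the minor strand of a widely expressed family, had 1807 and 1743 normalised counts in plus, against 506 and 453 in minus libraries. Nearest to miR-34a-5p were miR-192-5p, miR-132-3p and miR-194-5p, at distances of 0.10, 0.11 and 0.14. miR-192-5p had 4942 and 4925 normalised counts in plus, against 3027 and 2736 in minus libraries. Nearest to miR-449c-5p were miR-548k, miR-548av-5p and miR-548s, at 0.05, 0.05 and 0.06, of which miR-548k and miR-548av-5p had almost the same count in each library and may share reads. The distances rest on 4 libraries that share their depth and preparation, and they are given as a description.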

How the data were processed

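The authors deposited 1 signal value for each mature miRNA and library, read here as read counts adjusted to a common library size, since low values sit close to multiples of a step that differs by library. Adapters were trimmed with cutadapt, per the labels, and the submitters' processing notes list TopHat2 2.0.8b and edgeR as tools and hg19 and GRCh37 as builds. What counted the reads, and on which miRNA annotation, is not given in the sources used here. Columns were matched to samples by library number and index, since they write sh4 where titles write sh2.

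Plus was tested against minus with limma 3.58.1 (R 4.3.3), fitted with a mean-variance trend to log2(value + 1) of 709 miRNAs whose mean reached 10. P-values are two-sided, adjusted over all 709 by Benjamini-Hochberg, and called under 0.05. The fit was also run on simulated counts with no difference between lines, which does not tell how it performs on these data. A fold change on this scale understates the change of low miRNAs. With 2 residual and 43.0 prior degrees of freedom the spread is mostly borrowed from the trend over all tested miRNAs. The p-values set each change against that borrowed spread. They say little of a miRNA's own spread between libraries or between the 2 lines.

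Reads were estimated from the step, worth 1.03 and 1.02 in plus and 1.01 and 0.945 in minus replicates 1 and 2. Of the values under 60, 85.1% were whole numbers of steps to within 0.1 in minus replicate 2. In the other libraries 98.4% to 100% were. The share in minus replicate 2 was taken as too low for a count model. The intervals on reads nevertheless treat the rounded values as counts. Estimated depths were 9566036 to 10297804 reads. No member had the same 4 values as another row.

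Replicate numbers pair libraries by shRNA line, labelled for sh2 and by elimination for sh1. The deviations of same-numbered libraries from their group means correlated at 0.06 across 709 miRNAs, which are not independent replicates.

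Named miRNAs are all members, those sharing a seed and the 3 nearest in pattern to each of 3 members. Of the p53 list they are at most 12 strands past the threshold, taken by size of change. To these miR-145-5p and the partner strands miR-16-5p, miR-29c-3p, miR-29a-3p and miR-194-3p were added after their values were seen. Members, lists and tests were chosen with earlier results of these data known.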

Additional observations from a re-analysis of the deposited data

Results flagged for a closer look

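In a few ratios the sh1 and sh2 lines moved in opposite directions, which was not tested, with 1 library per line and condition. The log2 ratio of the 5p to the 3p strand was higher by 0.28 in the plus than in the minus library of the sh1 line for miR-34a, and differed by −0.086 in the sh2 line. For miR-34b this difference was −1.48 in the sh1 line and 0.019 in the sh2 line, with at most 2 reads of each strand in a minus library. For miR-34c it was −0.24 in the sh1 line and 0.16 in the sh2 line. The log2 ratio of miR-449c-5p to miR-449a differed by −0.30 in the sh1 line and by 0.0013 in the sh2 line. The normalised counts of the 11 strands themselves moved in the same direction in both lines. For miR-449b-5p this means little, since the sh1 line was nearly level, at 63.7 in plus against 63.5 in minus.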

How the results depend on the processing

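With 2 libraries per condition the calls depend on how the spread is estimated. miR-34c-5p was called in all 13 alternatives (limma adjusted p up to 0.0437, log2 change 1.64 to 1.87). miR-34a-5p was called in 12 and missed the threshold without a trend, at a log2 change of 0.76 (limma adjusted p = 0.0702). miR-34a-3p, not testable at a minimum mean of 100, lost its call without a level filter or a trend, both at 0.67, with equal totals at 0.61, after quantile normalization at 0.72, and with any library left out, from 0.50 to 0.83. miR-449c-5p lost its call without a level filter or a trend, both at −0.45, after quantile normalization at −0.27, and with any library left out, from −0.46 to −0.43. miR-449b-5p, also not tested at the higher minimum and never called, was at −0.012 with equal totals and between −0.18 and 0.27 with a library left out. miR-449a kept its direction and was not called in any, with −0.46 to −0.13 when a library was left out.

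The family's calls were 1 rise without a trend, 2 rises with any library left out, and 0 falls without a filter, without a trend, after quantile normalization or with any library left out. Over all miRNAs the reported 95 rises and 107 falls became 5 and 0 without a filter or without a trend, where 311 and 219 had an unadjusted limma p under 0.05, and 48 and 55 after quantile normalization. With a library left out they ranged from 6 to 57 rises and from 1 to 59 falls, the fewest without a plus library. The median of all tested miRNAs moved by at most 0.06 under another scaling.

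With the replicate block, the line as a term, 103 rose and 113 fell, miR-34a-5p and miR-34c-5p stayed at 0.76 and 1.76, and no call of the family changed. The GGCAGUG pool ratio was 1.63 with equal totals, 1.77 with median-ratio scaling, 1.66 with both seed registers summed and 1.68 to 1.70 with a library left out. The AGGCAGU pool ratio was 0.715 with equal totals, 0.776 with median-ratio scaling and 0.735 to 0.752 with a library left out. The log2 shift of the strand ratio changed sign with a library left out for miR-34a (−0.062 to 0.26), miR-34b (−1.47 to 0.0095) and miR-34c (−0.46 to 0.38), and for miR-34c it was 0.79 at a pseudocount of 5. For miR-449b and miR-449c the sign held, with shifts from 0.55 to 2.50 and from 0.71 to 2.73 over the alternatives. The causes were not tested. Strands under 20 reads per group are limited by depth.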
